A study of Drosophila mauritiana and Drosophila melanogaster and Drosophila simulans with 12 samples.

Results

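The genes described here encode structural proteins of the insect cuticle. They were chosen by name, as the genes whose FlyBase symbol begins with Cpr, Lcp, Ccp84, Acp65 or Twdl and which occur in both count tables of the reciprocal re-annotation, in which the gene models of all species were matched to each other. Of the 13311 genes in both tables, 105 are cuticle protein genes by this rule: 67 *Cpr* genes, 23 *Twdl* genes, 10 *Lcp* genes, 4 *Ccp84* genes and *Acp65Aa*. The symbol *Cpr* on its own also matches the letters, but it stands for cytochrome P450 reductase, which is no cuticle protein; this gene had between 90.9 and 151 CPM (counts scaled to the same library total, with TMM factors) in the 12 libraries and was left out of all counts that follow. A further 16 cuticle gene symbols, among them *Lcp65Ag1*, *Lcp65Ag3*, *Lcp65Ab1*, *Lcp65Ab2*, *Cpr65Ax1*, *Cpr65Ax2*, *Cpr67Fa1* and *Ccp84Aa*, are outside these tables and were not tested here. For 2 of the 16, *Ccp84Ab* and *Ccp84Ad*, counts of the direct re-annotation are given below.

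Discs of the eye and antenna (eye-antennal imaginal discs) were taken for RNA from female larvae late in the last larval instar (L3), at 120 h after egg laying, raised at 25 °C with 30 larvae per vial, and each library pooled 40 to 50 discs. Each species was represented by 1 untreated strain: OreR for *D. melanogaster*, TAM16 for *D. mauritiana* and YVF for *D. simulans*. The study's methods spell out YVF as *yellow*, *vermilion* and *forked*, so the *D. simulans* strain carries visible mutations, of which *yellow* is known to affect cuticle pigmentation, and the strain cannot be told apart from the species. There are 4 groups of 3 libraries. Single-end reads of 50 bp were obtained for *D. melanogaster* (replicates A to C) and *D. mauritiana* (A to C), and paired-end reads of 100 bp for *D. mauritiana* (D to F) and *D. simulans* (A to C). The study's methods call the replicates biological.

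Insect cuticle is built from chitin fibres and proteins that epidermal cells secrete. Most *Cpr*, *Lcp*, *Ccp84* and *Acp65* genes encode proteins with the Rebers and Riddiford consensus, a stretch that binds chitin, whereas Tweedle (*Twdl*) proteins form a separate family known from the short, squat *Tubby* body shape. Each moult has its own set of these genes, and the steroid hormone ecdysone and its target genes time their expression. In *D. melanogaster*, *Lcp1* to *Lcp4* are known as cuticle genes of the third instar larva and *Acp65Aa* as one of the adult. The eye-antennal disc itself grows during larval life and secretes pupal and adult cuticle later.

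Cuticle protein genes summed to 13660 to 25443 counts in each single-end library and to 80525 to 92222 in each paired-end one. This was between 0.0505 and 0.0927 % of the counts, with totals from 17170747 to 34063962 single-end and from 121468882 to 162437570 paired-end. None of the 105 genes was at 0 in all 12 libraries, but 43 were at 0 in at least 1 library. The group mean was at least 10 CPM in all 4 groups for 5 genes, and below 1 CPM in all 4 groups for 58 genes. Most cuticle protein genes thus had few counts, above all in the single-end libraries.

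The summed level of the 105 genes was 486, 821 and 576 CPM in *D. melanogaster* A, B and C, and 986, 760 and 589 CPM in *D. mauritiana* A, B and C. In the paired-end libraries it was 645, 630 and 535 CPM in *D. mauritiana* D, E and F and 695, 578 and 532 CPM in *D. simulans* A, B and C. The ranges of all 4 groups overlapped. The *Lcp* genes carried the high sum of *D. melanogaster* B, with 378 CPM against 85.9 and 164 CPM in A and C, and *Twdl* genes summed to between 91.9 and 110 CPM in the single-end *D. mauritiana* libraries against between 29.4 and 40.8 CPM in *D. melanogaster*. Fewer cells that express such a gene and less RNA per cell cannot be told apart in these pooled discs.

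**Figure D1:**
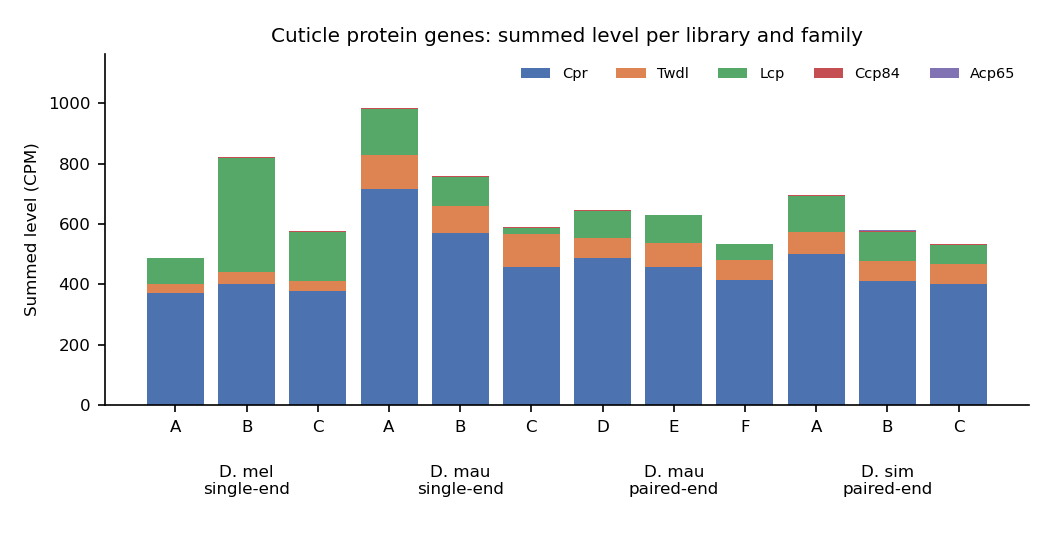
Stacked bars give the summed level (CPM, axis from 0) of the 105 cuticle protein genes in each of the 12 libraries, coloured by family. *D. melanogaster* B stands out by its *Lcp* genes (378 CPM), and *D. mauritiana* C by their low sum (21.7 CPM).

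Per kb of gene model, the 10 highest genes over the 4 groups were *Cpr51A*, *Cpr78E*, *Lcp65Ac*, *Cpr49Ac*, *Lcp1*, *Lcp4*, *Cpr65Ec*, *TwdlE*, *Cpr12A* and *Lcp2*. Their mean over the groups ranged from 353 CPM per kb for *Cpr51A* to 35.9 CPM per kb for *Lcp2*, and together they held between 58.2 and 76.4 % of the summed CPM of all 105 genes. *Cpr51A* (FBgn0033942; 2R from 8674018 to 8676534 on the published *D. mauritiana* genome, 2 exons) encodes a protein with the chitin-binding consensus. It had 87.9, 95.7 and 86.8 CPM in *D. melanogaster*, 286, 220 and 140 CPM in single-end and 125, 114 and 129 CPM in paired-end *D. mauritiana*, and 188, 190 and 181 CPM in *D. simulans*. Levels of *Cpr51A* thus lay close together in *D. melanogaster*, *D. simulans* and paired-end *D. mauritiana*, and spread widely only in single-end *D. mauritiana*. The next 3 genes by this mean had 120 CPM per kb for *Cpr78E*, 99.8 for *Lcp65Ac* and 77.9 for *Cpr49Ac*. The order differed between groups: *Cpr51A* was highest per kb in both *D. mauritiana* groups and in *D. simulans*, whereas in *D. melanogaster* *Lcp4* had 216 CPM per kb, *Cpr51A* 207, *Lcp1* 164, *Cpr78E* 25.8 and *Lcp65Ac* 18.8.

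**Figure D2:**
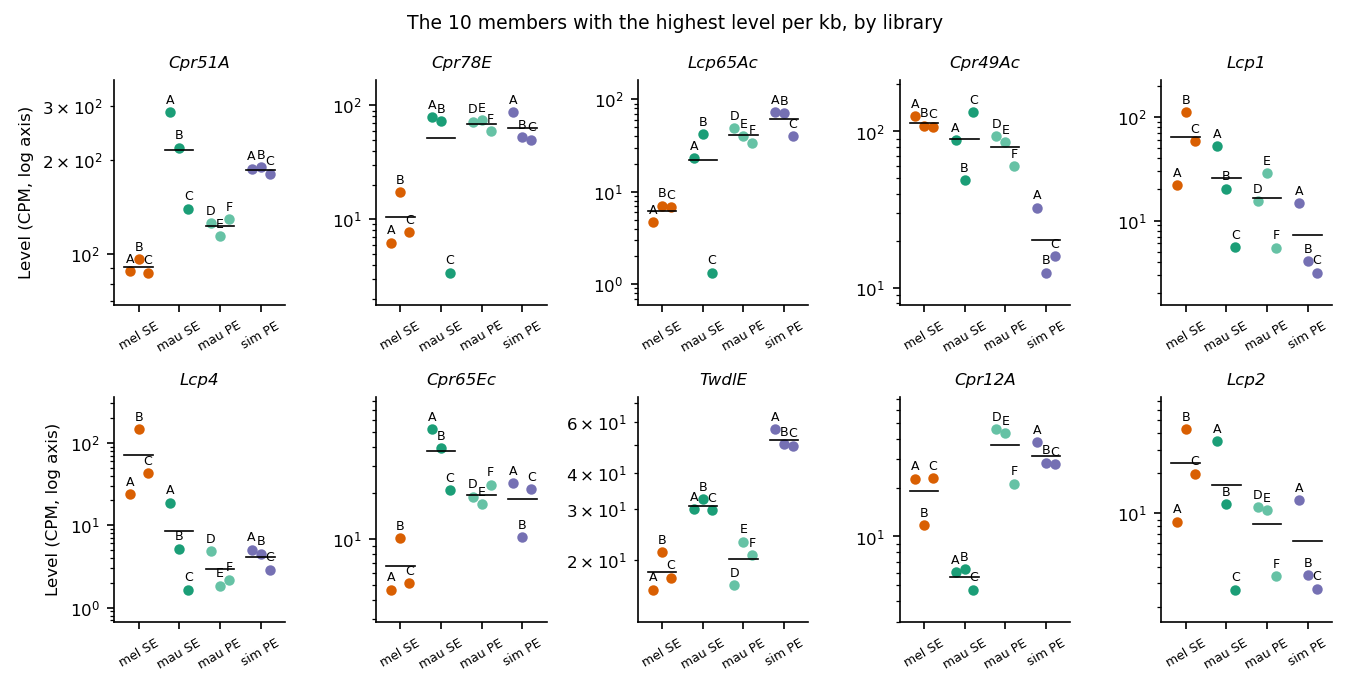
Each panel shows 1 of the 10 genes with the highest level per kb; points are libraries (letters) in the 4 groups, bars are group means, and the axis is CPM on a log scale. *D. mauritiana* C is far below A and B for *Cpr78E* and *Lcp65Ac* (3.40 and 1.34 CPM), and *D. melanogaster* B is the highest of its group for *Lcp1*, *Lcp2* and *Lcp4*.

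Cuticle genes of the third larval instar differed strongly between libraries of the same group. *Lcp1* (FBgn0002531) to *Lcp4* (FBgn0002535) lie next to each other on 2R from 2842297 to 2849244 of the *D. mauritiana* genome. *Lcp1* had 22.0, 112 and 58.3 CPM in *D. melanogaster* A, B and C, 52.1, 20.3 and 5.54 CPM in *D. mauritiana* A, B and C, 15.3, 28.7 and 5.45 CPM in *D. mauritiana* D, E and F, and 14.6, 4.06 and 3.13 CPM in *D. simulans* A, B and C. The highest and the lowest library of each group were thus several-fold apart, and *D. mauritiana* overlapped with each other species within its read type. *Lcp4* reached 145 CPM in *D. melanogaster* B against 24.0 and 42.8 CPM in A and C, and *Lcp3* 35.3 CPM against 1.99 and 3.37 CPM. The sum of the 4 genes was 335 CPM in *D. melanogaster* B, 56.7 and 124 CPM in A and C, and from 8.995 to 108 CPM in the other 9 libraries.

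In the pairs read here, neighbouring genes of this cluster moved together between libraries. This did not hold in every group: *D. mauritiana* E had the highest *Lcp1* of D to F (28.7 CPM) but the lowest *Lcp3* and *Lcp4* (0.26 and 1.85 CPM). Over the 12 libraries, the deviations of log2(CPM + 0.5) from the group means of *Lcp1* and *Lcp2* had a Pearson's r of 0.98, and those of *Lcp3* and *Lcp4* an r of 0.81. The r of *Lcp1* and *Lcp4* was 0.76. Genes far from the cluster, on 3L, came close to this, with an r of 0.75 for *Lcp1* and *Cpr78E* and of 0.63 for *Lcp1* and *Lcp65Ac*. Moving together was thus not particular to neighbours. The points share libraries and scaling, so these values are a description. None of *Lcp1*, *Lcp2* and *Lcp4* differed between the species in the tests below (adjusted p of 0.347, 0.741 and 0.077 with *D. melanogaster*, and of 0.283, 0.676 and 0.417 with *D. simulans*, from the quasi-likelihood F test of edgeR, adjusted after Benjamini and Hochberg across the whole table). For *Lcp4*, the 3 *D. melanogaster* libraries were all above the 3 *D. mauritiana* libraries, at a log2-fold change of 3.07 (standard error, SE, of 1.00), and 3 of 14 alternatives gave a call. Without 1 library the log2-fold change lay between 1.95 (without *D. melanogaster* B, adjusted p = 0.169) and 4.34 (without *D. mauritiana* A, adjusted p = 0.0401), and the highest adjusted p was 0.221, without *D. mauritiana* B. DESeq2 gave an adjusted p of 0.0379. The log2-fold change of *Lcp2* was 0.53 and turned to -0.23 without *D. melanogaster* B.

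*Cpr78E* (FBgn0037114; 3L from 20697660 to 20698061, 1 exon) and *Lcp65Ac* (FBgn0020642; 3L from 5876539 to 5876938, 2 exons) separated 1 *D. mauritiana* library from all others of that species. *Cpr78E* had 78.5 and 72.9 CPM in *D. mauritiana* A and B but 3.40 CPM in C, and between 59.3 and 74.1 CPM in D, E and F. *Lcp65Ac*, one of the larval cuticle genes of the cluster at 65A, had 23.04 and 41.9 CPM in A and B, 1.34 CPM in C and between 33.9 and 48.97 CPM in D, E and F. Levels in *D. melanogaster* were between 6.24 and 17.2 CPM for *Cpr78E* and between 4.67 and 7.10 CPM for *Lcp65Ac*, lower than in 5 of the 6 *D. mauritiana* libraries and higher than in C. Deviations of both genes had an r of 0.94 over the 12 libraries. With all 6 single-end libraries neither gene was called between *D. mauritiana* and *D. melanogaster* (log2-fold changes -2.33 and -1.85, adjusted p = 0.154 and 0.234, edgeR). Without *D. mauritiana* C both were called (-2.90 and -2.41, adjusted p = 0.00733 and 0.00459, edgeR).

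Markers of other tissues also differed between these libraries. The 7 muscle marker genes found (*Mhc*, *Mlc1*, *Mlc2*, *up*, *Tm2*, *bt* and *sls*), none of which was at 0 in any library, summed to 303, 434 and 101 CPM in *D. mauritiana* A, B and C, to between 360 and 796 CPM in *D. melanogaster*, to between 1052 and 1461 CPM in *D. mauritiana* D to F and to between 2055 and 2627 CPM in *D. simulans*. All 7 fat body markers (*Lsp1alpha*, *Lsp1beta*, *Lsp1gamma*, *Lsp2*, *Fbp1*, *Fbp2* and *apolpp*) were likewise detected in every library, and their sum was 5814 and 5134 CPM in *D. melanogaster* A and C but 170 CPM in B. It was 729, 1039 and 2316 CPM in *D. mauritiana* A, B and C and at most 169 CPM in each paired-end library. *D. melanogaster* B, with the highest *Lcp1* to *Lcp4*, thus had the lowest fat body and the lowest muscle markers (360 CPM) of its group. *D. mauritiana* C, with the lowest *Lcp1* to *Lcp4* of its group, also had the lowest muscle markers, but the highest fat body markers. The paired-end groups showed the reverse for fat body. *D. simulans* A had the highest *Lcp1* to *Lcp4* (32.6 CPM) and the highest fat body sum (169 CPM) of its group. *D. mauritiana* F had the lowest of both among D to F (11.4 and 49.9 CPM). The part of these markers in the levels of the cuticle genes was not tested.

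**Figure D3:**
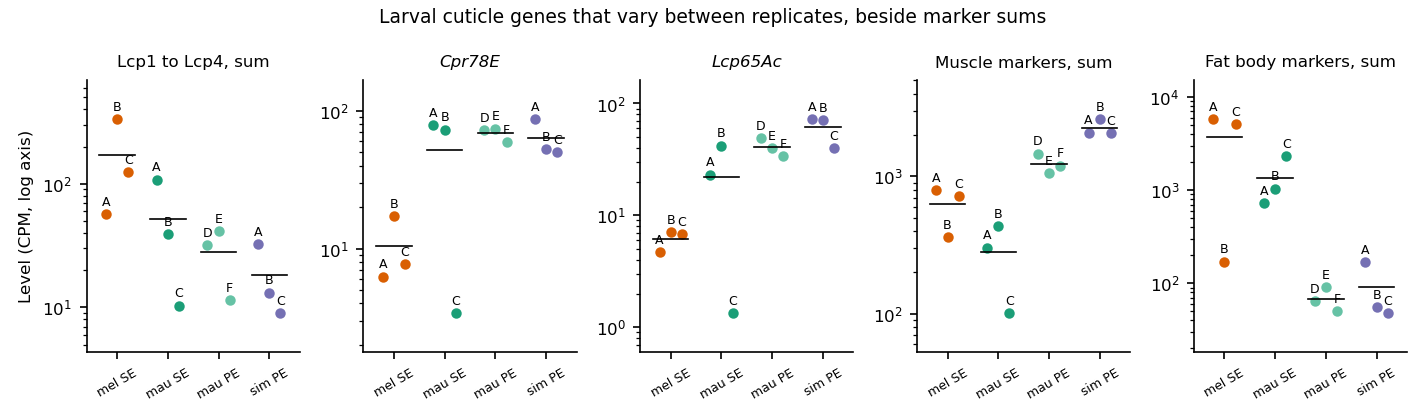
Points are libraries (letters) in the 4 groups, bars are group means, and the log axis gives CPM of the summed *Lcp1* to *Lcp4*, of *Cpr78E* and *Lcp65Ac*, and of the summed muscle and fat body markers. *D. melanogaster* B is highest for *Lcp1* to *Lcp4* (335 CPM) and lowest of its group for fat body markers (170 CPM).

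As a reading of the spread, the standard deviation of log2(CPM + 0.5) between the 3 replicates had a median of 0.52 over the 43 cuticle genes that averaged 10 counts or more in single-end *D. mauritiana*, against 0.30 for all genes in the same range of counts. The same medians were 0.33 and 0.29 in *D. melanogaster*, 0.19 and 0.18 in paired-end *D. mauritiana* and 0.21 and 0.19 in *D. simulans*. Replicates of the cuticle genes were thus farther apart than those of other genes in the first of these groups and much less so in the other 3, without a test.

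The first comparison asked which cuticle protein genes are expressed differently in *D. mauritiana* and *D. melanogaster*, both in single-end libraries. Of the 105 genes, 53 passed the filter on low counts, and 22 of these had an adjusted p below 0.05 in edgeR, with 12 higher in *D. melanogaster* and 10 higher in *D. mauritiana*. Over all 9767 genes tested, 18.2 % were called, 8.06 % as higher and 10.1 % as lower in *D. melanogaster*. A gene that passes the filter only through the species in which it is high must differ, so the share of called cuticle genes is not read against this background. The median log2-fold change was 0.33 over the 53 genes and 0.01 over all genes. For all 22 genes, the 3 libraries of one species lay on one side of the 3 libraries of the other. As the genes were chosen by the call on these libraries, this separation is no further support for it. By family, 10 *Cpr* and 2 *Lcp* genes were higher in *D. melanogaster*, and 6 *Cpr* genes, 1 *Lcp* gene and 3 *Twdl* genes higher in *D. mauritiana*.

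The genes with the largest log2-fold changes towards *D. melanogaster* had almost no counts in *D. mauritiana*. Such genes may have passed the filter on low counts only through *D. melanogaster*. The filter then sets their direction, so their calls are no support for it. *Cpr66Cb* (FBgn0035875; 3L from 7943089 to 7943653, 2 exons) received 133, 15 and 101 counts in *D. melanogaster* A, B and C and 3, 1 and 0 counts in *D. mauritiana*. Its log2-fold change was 5.71 (SE 1.04, adjusted p = 0.0101, edgeR). *D. melanogaster* B, at 0.902 CPM, was clearly below A and C at 4.64 and 4.10 CPM, and leaving out *D. mauritiana* B gave an adjusted p of 0.0539. The value was 7.23 without *D. mauritiana* A and 5.11 without C. The call also depended on the gene model: with the published annotations the *D. mauritiana* libraries received between 15 and 51 counts, and the log2-fold change was 1.26 (adjusted p = 0.247, edgeR).

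*Cpr64Ac* (FBgn0035512; 3L from 4032441 to 4032998) had 66, 96 and 103 counts in *D. melanogaster* against 6, 1 and 1 in *D. mauritiana*, and its log2-fold change of 5.05 (SE 0.89, adjusted p = 0.00861, edgeR) was past the threshold under every alternative that gave a value. *Cpr60D* had 17, 28 and 18 counts in *D. melanogaster* and 0, 2 and 0 in *D. mauritiana*, with a log2-fold change of 5.03 (SE 0.95, adjusted p = 0.0115, edgeR). Both genes were higher in every *D. melanogaster* library, including B. With so few counts in *D. mauritiana* the size of the change is poorly known: it was 6.72 without *D. mauritiana* A and 4.42 without B for *Cpr64Ac*, and 7.47 without *D. mauritiana* B and 4.44 without *D. melanogaster* B for *Cpr60D*. *Cpr97Eb* showed the same order, with 29, 19 and 35 counts against 0, 5 and 5 and a log2-fold change of 3.20 (SE 0.68, adjusted p = 0.0174, edgeR). Its adjusted p passed 0.05 without *D. mauritiana* B (0.0691), *D. melanogaster* A (0.052) or *D. melanogaster* C (0.0742). *Cpr97Ea*, its neighbour, had 19.7, 31.5 and 24.6 CPM in *D. melanogaster* and 10.8, 7.92 and 12.0 CPM in *D. mauritiana*, also without overlap (log2-fold change 1.31, adjusted p = 0.0129, edgeR).

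*Lcp65Ag2* (FBgn0020637; 3L from 5865982 to 5866360) belongs to the cluster of larval cuticle genes at 65A and has close copies in *D. melanogaster*, *Lcp65Ag1* and *Lcp65Ag3*, that have no counts of their own here, so its counts may include reads of these copies. It had 207, 189 and 241 counts in *D. melanogaster* and 35, 33 and 5 in *D. mauritiana*, with all 3 *D. melanogaster* libraries higher. The log2-fold change was 3.14 (SE 0.72, adjusted p = 0.0233, edgeR), and the adjusted p was 0.092 without *D. mauritiana* B and 0.0722 without *D. melanogaster* C, while the value was 3.94 without *D. mauritiana* A. In the direct re-annotation, between 32 and 52 counts fell on this gene in *D. melanogaster*, although the model was equally long (318 nt), and the log2-fold change was 0.49 (adjusted p = 0.727, edgeR).

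*Cpr12A* (FBgn0030494; X from 12550998 to 12551944, 2 exons), one of the 10 highest genes per kb, had 22.6, 11.8 and 22.8 CPM in *D. melanogaster* and 6.03, 6.27 and 4.70 CPM in *D. mauritiana*. All *D. melanogaster* libraries were higher, and the log2-fold change of 1.74 (SE 0.29, adjusted p = 0.00743, edgeR) was called under each of the 14 alternatives.

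Among genes higher in *D. mauritiana*, *TwdlF* (FBgn0037224; 3R from 65283 to 66350, 1 exon) changed most. This Tweedle gene received 472, 246 and 160 counts in *D. mauritiana* A, B and C, equal to 28.5, 7.35 and 6.11 CPM, and 8, 3 and 4 counts in *D. melanogaster*. The log2-fold change was -6.03 (SE 0.81, adjusted p = 0.00308, edgeR). *D. mauritiana* A was well above B and C (log2-fold change -4.98 without A), and the paired-end libraries of the same strain were lower and uneven, with 0.296, 4.46 and 0.425 CPM in D, E and F. *D. simulans* had between 0.154 and 0.21 CPM. Neither the difference from *D. simulans* (adjusted p = 0.0618) nor that between the *D. mauritiana* sets (0.0638) was called in edgeR. *TwdlF* was thus far highest in single-end *D. mauritiana* A. Libraries B and C lay nearer to paired-end E than to A, and all other libraries were at most 0.425 CPM. Over the groups, its neighbours *TwdlG* and *TwdlV* averaged 0.136 and 0.66 CPM per kb, against 3.77 CPM per kb for *TwdlF*.

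*TwdlT* (FBgn0029170; 3R from 22043643 to 22044566, 2 exons) had 43.1, 47.9 and 68.7 CPM in *D. mauritiana* A, B and C and 7.95, 8.84 and 8.60 CPM in *D. melanogaster*, so that the groups were far apart and *D. melanogaster* nearly constant. Its log2-fold change was -2.65 (SE 0.21, adjusted p = 0.000418, edgeR). *Cpr67B* (FBgn0035985; 3L from 8960439 to 8961194) was also far apart, with 36.4, 33.3 and 22.5 CPM in *D. mauritiana*, 3.42, 3.13 and 3.93 CPM in *D. melanogaster* and a log2-fold change of -3.14 (SE 0.25, adjusted p = 0.000425, edgeR). Both were called under all 14 alternatives. *TwdlE* (FBgn0031957), also a Tweedle gene, differed by less, with 30.0, 32.3 and 29.7 CPM in *D. mauritiana* and 15.7, 21.3 and 17.3 CPM in *D. melanogaster*. The log2-fold change of -0.76 (SE 0.18, adjusted p = 0.0237, edgeR) was no longer called without *D. mauritiana* B (adjusted p = 0.0725), *D. melanogaster* A (0.102) or *D. melanogaster* C (0.113).

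*Cpr72Ea* (FBgn0036617; 3L from 15705184 to 15706209) had 47.3, 28.5 and 45.9 CPM in *D. mauritiana* and 1.71, 5.53 and 2.84 CPM in *D. melanogaster*. Its log2-fold change was -3.62 (SE 0.46, adjusted p = 0.00259, edgeR). *Cpr76Bb* had 127, 163 and 75 counts against 1, 7 and 9, and *Cpr67Fa2* 123, 349 and 88 counts against 14, 16 and 23. Neither pair of groups overlapped, and the log2-fold changes were -4.29 for *Cpr76Bb* and -3.17 for *Cpr67Fa2* (adjusted p = 0.00969 and 0.00685, edgeR). Without *D. melanogaster* A the former was -3.70. *Cpr67Fa2* has a close copy, *Cpr67Fa1*, without counts of its own here, and its counts may include reads of this copy. *Cpr65Ec* (FBgn0035737; 3L from 6764239 to 6764610) had 52.3, 39.3 and 20.8 CPM in *D. mauritiana* and 4.64, 10.2 and 5.11 CPM in *D. melanogaster*, with no overlap and a log2-fold change of -2.51 (SE 0.45, adjusted p = 0.00961, edgeR).

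*Cpr51A* was lower in every *D. melanogaster* library, with a log2-fold change of -1.26 (SE 0.27, adjusted p = 0.0171, edgeR). The adjusted p was 0.0538 without *D. mauritiana* B, 0.0614 without *D. melanogaster* A and 0.0755 without *D. melanogaster* C. *Cpr49Ac* (FBgn0033725; 2R from 6654527 to 6657147, 7 exons) had 125, 109 and 107 CPM in *D. melanogaster* and 88.3, 48.7 and 133 CPM in *D. mauritiana*, which overlapped (log2-fold change 0.33, adjusted p = 0.545, edgeR). In the same cluster at 49A, *Cpr49Ab* and *Cpr49Ah* were among the 12 genes higher in *D. melanogaster*, and the level of the 8 genes ranged from 0.0601 to 77.9 CPM per kb. Of the neighbours of *Cpr64Ac*, *Cpr64Ad* was tested and not called (adjusted p = 0.569, edgeR), and *Cpr64Aa* and *Cpr64Ab*, which never exceeded 5 counts in these libraries, were not tested.

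**Figure D4:**
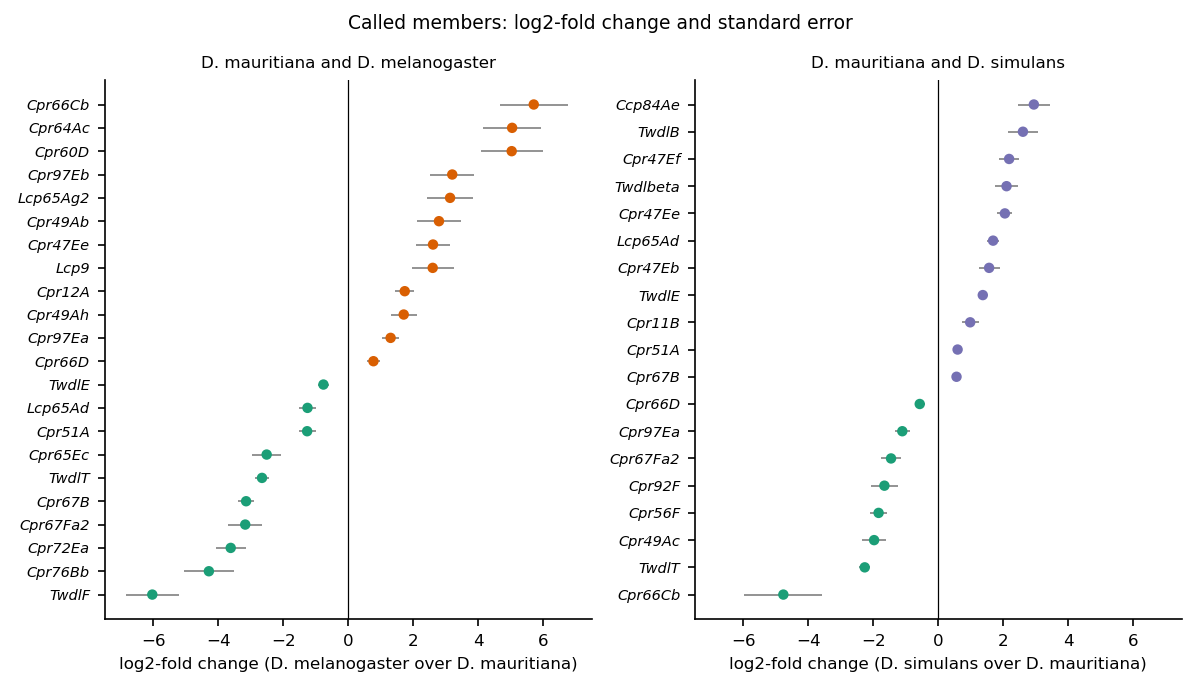
Log2-fold changes (points) with standard errors (lines) of the 22 cuticle protein genes called between *D. mauritiana* and *D. melanogaster* (left, single-end libraries) and the 19 called between *D. mauritiana* and *D. simulans* (right, paired-end libraries). Positive values mean higher expression in the other species; *TwdlT* is lower in both, and *Cpr66Cb* lies at opposite ends (5.71 and -4.77).

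The second comparison asked the same of *D. mauritiana* and *D. simulans* in the paired-end libraries, which are deeper. Here 83 of the 105 genes passed the filter, and 19 were called, 11 as higher and 8 as lower in *D. simulans*. Over all 11121 genes tested, 25.1 % were called, 12.1 % as higher and 13.0 % as lower in *D. simulans*. The median log2-fold change was -0.26 over the 83 genes and 0.00 over all genes. No called gene overlapped between the groups, which follows largely from the call on the same libraries and is no further support for it. Calls by family were 6 *Cpr* genes, 3 *Twdl* genes, 1 *Lcp* gene and 1 *Ccp84* gene as higher, and 7 *Cpr* genes and 1 *Twdl* gene as lower.

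*TwdlT* had 41.5, 43.6 and 36.8 CPM in *D. mauritiana* D, E and F and 8.93, 6.44 and 10.1 CPM in *D. simulans*. All *D. simulans* libraries were far lower, and the log2-fold change of -2.27 (SE 0.18, adjusted p = 0.000245, edgeR) was called under each of 13 alternatives. *Cpr49Ac* was likewise lower in *D. simulans*, with 93.5, 85.5 and 60.2 CPM in *D. mauritiana* against 32.6, 12.5 and 15.9 CPM (log2-fold change -1.98, SE 0.37, adjusted p = 0.00878, edgeR). *Cpr56F* had 10.3, 10.3 and 6.81 CPM in *D. mauritiana* and 2.71, 3.08 and 1.93 CPM in *D. simulans*, with a log2-fold change of -1.84 (SE 0.25, adjusted p = 0.00241, edgeR). For both genes the lowest *D. mauritiana* library was F, and it was still higher than all 3 *D. simulans* libraries. *Cpr66Cb* received 71, 20 and 19 counts in *D. mauritiana* and 0, 4 and 0 in *D. simulans*. Its log2-fold change of -4.77 (SE 1.21, adjusted p = 0.028, edgeR) rests on few counts, was -8.29 without *D. simulans* B, and lost its call without *D. mauritiana* D (-3.69, adjusted p = 0.0967), *D. simulans* A (adjusted p = 0.0717) or *D. simulans* C (-4.18, adjusted p = 0.0873).

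*TwdlE* was higher in *D. simulans*, with 56.5, 50.2 and 49.6 CPM against 16.3, 23.1 and 20.8 CPM in *D. mauritiana*. The groups were far apart, and the log2-fold change of 1.37 (SE 0.14, adjusted p = 0.000684, edgeR) was called under all 13 alternatives. *Lcp65Ad* (FBgn0020641; 3L from 5875114 to 5875531), of the cluster at 65A, had 8.91, 8.22 and 10.8 CPM in *D. simulans* and 2.47, 3.01 and 3.15 CPM in *D. mauritiana*, and its log2-fold change was 1.68 (SE 0.18, adjusted p = 0.000899, edgeR). *Lcp65Ac*, which lies next to it, had 72.9, 71.3 and 40.0 CPM in *D. simulans* and between 33.9 and 48.97 CPM in *D. mauritiana*. These ranges overlapped (log2-fold change 0.58, adjusted p = 0.126, edgeR), and the gene was called without *D. simulans* C (0.81, adjusted p = 0.0188) and in DESeq2 (adjusted p = 0.0312). *Cpr51A* was higher in all *D. simulans* libraries, with a log2-fold change of 0.59 (SE 0.07, adjusted p = 0.00108, edgeR).

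In the cluster of 7 *Cpr* genes at 47E on 2R, 3 were called, all higher in *D. simulans*. *Cpr47Ee* had 392, 477 and 475 counts in *D. simulans* and 116, 89 and 113 in *D. mauritiana* (log2-fold change 2.05, SE 0.23, adjusted p = 0.00118, edgeR). *Cpr47Ef* had 92, 142 and 126 counts against 21, 31 and 26, and *Cpr47Eb* 768, 1419 and 886 counts against 322, 224 and 486. None of these groups overlapped, and the log2-fold changes were 2.18 for *Cpr47Ef* and 1.56 for *Cpr47Eb* (adjusted p = 0.00265 and 0.0131, edgeR). With the published annotations, on which both species received more counts, the log2-fold changes of *Cpr47Ee* and *Cpr47Ef* fell to 1.02 and 1.16. *Twdlbeta* showed the same order at lower counts, with between 109 and 138 in *D. simulans* and 25, 38 and 20 in *D. mauritiana* (log2-fold change 2.10, SE 0.36, adjusted p = 0.00677, edgeR).

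For 2 genes the direction depended on the annotation. *Ccp84Ae* (FBgn0004779; 3R from 2348244 to 2348863, 1 exon) had 133, 152 and 140 counts in *D. simulans* and 17, 29 and 8 in *D. mauritiana* on the reciprocal models, with a log2-fold change of 2.94 (SE 0.50, adjusted p = 0.00609, edgeR). On the published models, *D. mauritiana* had between 100 and 182 counts and *D. simulans* between 0 and 7, and the log2-fold change was -5.02 (adjusted p = 0.0034, edgeR). On the models of the direct re-annotation both species had at most 20 counts. Its neighbours *Ccp84Ab* and *Ccp84Ad* are only in the tables of the direct re-annotation, where *Ccp84Ab* had between 792 and 1044 counts in *D. mauritiana* and between 637 and 987 in *D. simulans*, and *Ccp84Ad* between 346 and 461 and between 632 and 740. How reads of these related genes were divided was not tested.

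*TwdlB* (FBgn0039436; 3R from 21627831 to 21628759), of a cluster of 10 *Twdl* genes on 3R, had 24, 33 and 37 counts in *D. simulans* and 3, 6 and 6 in *D. mauritiana* on the reciprocal models. All *D. simulans* libraries were higher, with a log2-fold change of 2.60 (SE 0.45, adjusted p = 0.00693, edgeR). On the models of the direct re-annotation, of the same length, *D. mauritiana* had between 9 and 26 counts and *D. simulans* between 3 and 14, and the log2-fold change was -1.34 (adjusted p = 0.175, edgeR).

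*Lcp1* and *Lcp2* were below the threshold here, as were *Cpr78E* (log2-fold change -0.12, adjusted p = 0.718), *Cpr65Ec* (-0.11, adjusted p = 0.814) and *Cpr12A* (-0.23, adjusted p = 0.589; edgeR). Of these, *Cpr78E* had 72.01, 74.1 and 59.3 CPM in *D. mauritiana* and 87.3, 52.4 and 50.0 CPM in *D. simulans*, and *D. simulans* A lay above and the other libraries of this species below all 3 *D. mauritiana* libraries. Its log2-fold change was -0.43 and called without *D. simulans* A (adjusted p = 0.034), and close to 0 without B or C (0.0013 and 0.021).

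Both species comparisons have no library in common. Of the 53 cuticle genes tested in both, 10 were called in both, which is 45.5 % of the calls with *D. melanogaster* and 52.6 % of those with *D. simulans*. Over all genes, 780 were called in both, 43.9 and 28.0 % of the calls. *TwdlT* and *Cpr67Fa2* were higher in *D. mauritiana* than in either other species, and *Cpr47Ee* lower. The remaining 7 had opposite signs. Relative to *D. mauritiana*, *TwdlE* (-0.76 and 1.37), *Lcp65Ad* (-1.25 and 1.68), *Cpr51A* (-1.26 and 0.59) and *Cpr67B* (-3.14 and 0.56) were lower in *D. melanogaster* and higher in *D. simulans*. *Cpr66Cb* (5.71 and -4.77), *Cpr97Ea* (1.31 and -1.11) and *Cpr66D* (0.78 and -0.57) were higher in *D. melanogaster* and lower in *D. simulans*. Several of these calls were lost when 1 library was left out, including those of *Cpr66Cb*, *Cpr66D*, *TwdlE*, *Cpr51A* and *Lcp65Ad* in at least 1 of the comparisons. For *Lcp65Ad* with *D. melanogaster* the adjusted p was 0.0534 without *D. mauritiana* B, 0.0799 without *D. melanogaster* A and 0.0769 without *D. melanogaster* C, and for *Cpr67B* with *D. simulans* it was 0.0581 without *D. mauritiana* D. *Cpr97Ea* with *D. simulans* had an adjusted p of 0.0518 without *D. simulans* C, *Cpr67Fa2* with *D. simulans* 0.0605 without *D. mauritiana* D, and *Cpr47Ee* with *D. melanogaster* 0.052 without *D. melanogaster* A, 0.0615 without *D. melanogaster* C and 0.224 with the published annotations. Over all genes called in both, 21.5 % had opposite signs. *D. melanogaster* and *D. simulans* were not compared directly, since their libraries differ in read type.

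*Cpr66D*, known as a protein of the corneal lens of the compound eye, was chosen for this role after its values were seen. It had 36.4, 33.5 and 38.2 CPM in *D. melanogaster*, 16.9, 19.3 and 26.8 CPM in single-end *D. mauritiana*, 12.2, 14.0 and 15.4 CPM in paired-end *D. mauritiana* and 10.7, 9.10 and 8.37 CPM in *D. simulans*. Neither species pair overlapped (adjusted p = 0.029 and 0.0303, edgeR). The call with *D. melanogaster* was lost without *D. mauritiana* A or B and without *D. melanogaster* A or C (adjusted p from 0.0874 to 0.118), and the call with *D. simulans* without *D. mauritiana* E or F and without *D. simulans* B or C (0.067 to 0.107). With the published annotations, the log2-fold change with *D. melanogaster* was 0.37 and not called (adjusted p = 0.118, edgeR), and that with *D. simulans* was -0.92 (adjusted p = 0.00298, edgeR). *Cpr72Ec*, also known from the lens, was at most 0.296 CPM in each library. Lens cuticle is secreted in the pupa.

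The third comparison set the paired-end against the single-end libraries of the same *D. mauritiana* strain. Read type, depth and sequencing set cannot be told apart in it, and it shares 3 libraries with each species comparison. Of 71 cuticle genes tested, 23 were called, 9 as higher and 14 as lower in the paired-end libraries. Over all 10467 genes tested, 45.3 % were called, 20.9 % as higher and 24.4 % as lower. With DESeq2's size factors in edgeR, 10 were higher and 10 lower. The log2-fold changes followed the length of the gene model: the median was -0.85 over all genes with models of up to 600 nt and 0.07 over longer ones. Cuticle protein genes are short, with a median of 594 nt against 1179 nt over all genes.

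Of the 38 cuticle genes tested with models of up to 600 nt, 10 were lower and 5 higher in the paired-end libraries, with a median log2-fold change of -0.17. Called were thus 39.5 % of them, against 62.3 % of all 1729 genes tested of this length, of which 5.78 % were called as higher. Of the 33 longer ones, 4 were lower and 4 higher, with a median of -0.12. This was 24.2 % called, against 41.9 % of all longer genes tested. When the trend over length was entered into the fit as an offset, a setting added after seeing the data, 9 cuticle genes were higher and 2 lower, and all 11 were among the 23. *Lcp65Ad* (-1.12) and *Cpr72Ea* (-1.74) were the 2 that stayed lower. In the unadjusted fit, *Lcp65Ad* had a log2-fold change of -2.05 and *Cpr72Ea* of -2.04 (adjusted p = 0.00783 and 0.0115, edgeR), with 4.93, 10.8 and 13.5 CPM for *Cpr72Ea* in *D. mauritiana* D, E and F against 28.5 to 47.3 CPM in A to C. Without E, the adjusted p of *Cpr72Ea* was 0.0501. *Lcp3* was also called (-1.98, adjusted p = 0.0329, edgeR), although the groups overlapped, and lost its call with the length offset (adjusted p = 0.246) and without *D. mauritiana* A, B, D, E or F (adjusted p from 0.0685 to 0.107).

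Of the 9 genes higher in the paired-end libraries, 7 never exceeded 27 counts in A, B or C, and the other 2 were *Cpr12A* and *Cpr56F*. Some of the 7 may have passed the filter on low counts only through the deeper paired-end libraries. The direction of such a gene is set by the filter, so the number of genes called as higher is not read as a result. *Cpr92F* (FBgn0038819; 3R from 4700948 to 4702081, 1 exon) had 8.99, 7.25 and 2.88 CPM in D, E and F and 0.181, 0.299 and 0.42 CPM in A, B and C, and its log2-fold change was 4.37 (SE 0.54, adjusted p = 0.00783, edgeR). *Cpr12A* had 45.6, 43.3 and 21.1 CPM in D, E and F against 4.70 to 6.27 CPM in A to C (2.70, adjusted p = 0.00783, edgeR). In both genes F was lower than D and E and still far above A to C. *Twdlalpha* (2.10), *Cpr47Eb* (2.68), *Cpr47Eg* (3.39), *Cpr62Bc* (3.56) and *Cpr11B* (1.99) were higher too, with adjusted p from 0.0095 to 0.037 in edgeR. So were *Cpr56F* (0.91, adjusted p = 0.0339), with 94, 186 and 90 counts in A, B and C and no call without A, B, D or E (adjusted p from 0.0545 to 0.112), and *Cpr78Ca* (1.07, adjusted p = 0.0427; edgeR), which was named after its values were seen. Without A, the values of *Cpr47Eg* and *Cpr62Bc* were 4.004 and 4.75, that of *Cpr62Bc* was 2.92 without C, and that of *Cpr11B* 2.68 without B. Without *D. mauritiana* B, *Cpr47Eb*, *Cpr47Eg*, *Cpr62Bc* and *Cpr11B* lost their calls (adjusted p from 0.0519 to 0.0677), and 5 cuticle genes were called at all. *Cpr62Bc* was also lost without D or E (0.0518 and 0.0507), and *Cpr11B* without A, D, E or F (0.0681 to 0.0976). The number called was 14 without A, 28 without C, 7 without D, 7 without E and 12 without F. All 7 fat body markers were lower in the paired-end libraries, with a median log2-fold change of -4.54, and 4 of the 7 muscle markers were higher, with a median over the 7 of 2.12. Their part in these differences was not tested.

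**Figure D5:**
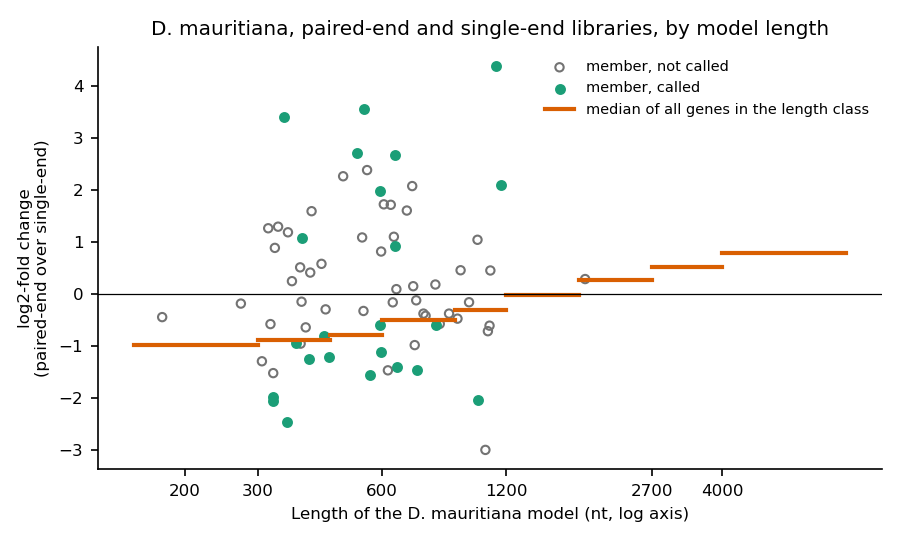
Log2-fold change of paired-end over single-end *D. mauritiana* libraries against the length of the gene model (log axis, nt) for the 71 cuticle protein genes tested (filled circles: called) and as the median of all genes per length class (lines; the first and last class are open-ended). The median rises from -0.98 in the shortest class to 0.78 in the longest, and cuticle genes lie mostly below 1200 nt on both sides of it.

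Gene clusters held 77 of the 105 genes within 25 kb of another gene matched by the rule. In several clusters 1 gene was far above its neighbours per kb. At 65E, *Cpr65Ec* had 55 CPM per kb and the next gene, *Cpr65Ea*, 0.206. At 49A, *Cpr49Ac* had 77.9 and *Cpr49Ag* 9.23, and at 65A, among 11 genes, *Lcp65Ac* had 99.8 and *Lcp65Ad* 22.4. At 47E, in contrast, *Cpr47Eg* and *Cpr47Eb* were alike at 4.67 and 4.43 CPM per kb. The 10 genes of the *Twdl* cluster on 3R from 21624461 to 21645699 were all low, between 0.0262 and 0.674 CPM per kb, and *Acp65Aa*, the adult cuticle gene, had at most 0.844 CPM in each library.

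Other cuticle and chitin genes, with names outside the rule, summed to between 4143 and 7100 CPM. The genes named from this and the next list were chosen after their values were seen. Of 48 found, 44 were tested with *D. melanogaster* and 10 were higher and 5 lower there, and 47 were tested with *D. simulans* and 2 were higher and 11 lower. Medians of the log2-fold change were 0.21 and -0.02. Over all genes tested, 18.2 % were called with *D. melanogaster* and 25.1 % with *D. simulans*. Between the *D. mauritiana* sets, 46 were tested and 13 were higher and 3 lower in the paired-end libraries, against 45.3 % called over all genes. *obst-A*, which encodes a chitin-binding protein of the forming cuticle, had between 457 and 544 CPM in single-end *D. mauritiana* and between 104 and 140 CPM in *D. melanogaster* (log2-fold change -2.01), and it was lower in *D. simulans* as well (-1.82). *resilin*, which encodes an elastic cuticle protein with the same chitin-binding consensus, was at 1.87 to 2.59 CPM in single-end *D. mauritiana*, at most 0.105 CPM in *D. melanogaster* and at most 0.00813 CPM in *D. simulans* (log2-fold changes -5.56 and -7.33, adjusted p = 0.0044 and 5.33e-05, edgeR). Pupal cuticle genes were low: *Edg78E* was at most 3.56 CPM, *Edg84A* at most 0.0697 CPM and *Pcp* at most 14.2 CPM in each library. *kkv*, the chitin synthase of the epidermis, had between 201 and 502 CPM and was called in neither species comparison.

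Ecdysone-related genes were read in the same libraries because many of them are used as marks of the larval stage. The list also holds *dib* and *sad*, which act in the synthesis of ecdysone and do not themselves mark the stage of the disc. All 23 found were tested, and over all genes tested 18.2 % were called with *D. melanogaster* and 25.1 % with *D. simulans*. With *D. melanogaster*, only *Hr38* was called, as higher there. With *D. simulans*, 9 were lower, among them *dib* and *sad* (log2-fold changes -2.80 and -2.16). *ftz-f1* was higher in *D. simulans*, with 76.3, 84.0 and 75.6 CPM against 24.7, 25.0 and 30.1 CPM in *D. mauritiana*. *Hr3*, an early-late nuclear receptor gene, had 6.30, 2.64 and 9.41 CPM in *D. simulans* and 27.5, 19.4 and 30.1 CPM in *D. mauritiana*. Between replicates, *Hr3* reached 55.5 CPM in *D. melanogaster* B against 15.0 and 21.1 CPM in A and C, and 38.3 CPM in *D. mauritiana* C against 13.1 and 11.5 CPM in A and B. *D. melanogaster* B and *D. mauritiana* C thus had the highest *Hr3* of their groups, while *Lcp1* to *Lcp4* were highest in the former and lowest in the latter. Between the *D. mauritiana* sets, 6 of the 23 were higher and 3 lower in the paired-end libraries, against 45.3 % called over all genes. The part of stage in these differences was not tested.

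Of 12 names of eye-antennal disc markers, 11 were found, with a sum between 1454 and 1856 CPM in the 12 libraries, no gene at 0 and no call in either species comparison. Between the *D. mauritiana* sets, 2 of them were higher and 1 lower in the paired-end libraries, where 45.3 % of all genes tested were called. Hemocyte markers (8 genes) summed to 2603 and 2350 CPM in *D. melanogaster* A and C and to between 427 and 1131 CPM elsewhere, salivary gland markers (4) to between 5.24 and 232 CPM, glial markers (4) to between 222 and 430 CPM, tracheal markers (3, of which *Gasp* and *obst-A* are also cuticle and chitin genes) to between 368 and 868.4 CPM and gut markers (4) to between 0.28 and 52.5 CPM. Among these lists, genes at 0 occurred only for gut (2 genes in *D. mauritiana* E).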

How the data were processed

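Whole-number counts per gene model, not normalized, were deposited by the authors in 1 table for *D. mauritiana* with *D. melanogaster* and another with *D. simulans*, beside model lengths. Per their methods, paired-end reads were cut into 50 bp pieces and merged, so that 1 fragment can give several counts, and untrimmed reads were aligned with Bowtie2 to each species' own set of coding sequences without UTRs. SAMtools 0.1.19 is named in the submitters' processing notes. The authors kept 1 copy of genes with identical sequence, and the counting does not separate near-identical genes or strands. Positions are those of the reciprocal models on the published *D. mauritiana* genome, as deposited by the authors. Their other alignments were not used here.

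The cuticle genes, gene lists and markers were chosen with earlier results of these data known. Symbols were found for 13065 of the 13331 identifiers of the table with *D. melanogaster*. Each comparison of 3 with 3 libraries was tested on the deposited counts with the quasi-likelihood test of edgeR 4.0.16 (R 4.3.3), TMM normalization and filterByExpr, and genes with a Benjamini-Hochberg adjusted p below 0.05 over all genes tested were called. Log2-fold changes are positive for the other species or, within *D. mauritiana*, for paired-end libraries. CPM values use 1 TMM scaling of all 12 libraries. Named were the 10 genes with the highest CPM per kb and, per comparison, up to 10 called genes with the largest absolute log2-fold change and a mean of at least 20 counts in the higher group, and neighbours in their clusters by range. For *D. mauritiana* alone, both tables were joined over genes of the same length. On simulated counts, a log2-fold change of 2 was recovered in 82.8 % (9648 genes, *D. melanogaster*), 84.8 % (11003 genes, *D. simulans*) and 81.8 % (10348 genes, within *D. mauritiana*) of changed genes. In the same order, a log2-fold change of 1 was recovered in only 39.4, 56 and 44.4 %, and 5.47, 3.45 and 7.41 % of the calls were false. Alternatives were DESeq2 1.42.0, its size factors, other filters on low counts, the other annotations, a limit of 49 bp on length differences, the replicate letter as a block, leaving out each library and a length offset.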

Additional observations from a re-analysis of the deposited data

How the results depend on the processing

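The number of cuticle genes called with *D. melanogaster* was 22, and between 15 and 29 with other normalization, filters, annotations and tools. With at least 10 counts in every library 15 were called, 5 higher and 10 lower in *D. melanogaster*. Leaving out 1 library gave from 12 (without *D. melanogaster* C) to 27 (without *D. mauritiana* C), with 13 without *D. mauritiana* B and 14 without *D. melanogaster* A. With *D. simulans*, all alternatives gave between 15 and 24 calls (19 in the main analysis). Between paired-end and single-end *D. mauritiana*, 23 genes were called, between 16 and 27 under other tools and filters, 11 with the length offset (chosen after the data had been seen) and from 5 (without *D. mauritiana* B) to 28 (without *D. mauritiana* C) without 1 library. The replicate letters A to C did not pair the single-end libraries (correlations of deviations -0.21, 0.19 and 0.12). With the replicate letter as a block, 24 genes were called, 21 of them among the 22, and *Lcp4* gained a call (3.43, adjusted p = 0.0431, edgeR).

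Directions turned for *TwdlB* with *D. simulans* (-1.34, direct re-annotation), *Ccp84Ae* with *D. simulans* (-5.02, published annotations) and, with the length offset, for *TwdlE* (0.036), *Lcp1* (0.20) and *Cpr49Ac* (0.17) between read types. Without 1 library, log2-fold changes turned for *Lcp2* with *D. melanogaster* (from -0.23 to 1.69), for *Cpr65Ec* (from -0.32 to 0.18) and *Cpr78E* (from -0.43 to 0.021) with *D. simulans*, and between read types for *Lcp1* (from -1.31 to 0.36), *Lcp2* (from -1.48 to 0.23), *Cpr49Ac* (from -0.45 to 0.22) and *Cpr78E* (from -0.14 to 0.85). The causes were not tested. Of the named calls, 11 of 19 with *D. melanogaster*, 11 of 19 with *D. simulans* and 4 of 17 between read types held under every alternative that gave a value.

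Depth limits the low genes: 22 of the 105 were tested in no comparison, with at most 79 counts over the 12 libraries. Low-scoring bases, left untrimmed by the authors, occurred in *D. simulans* C and in *D. mauritiana* E, D and A. Read type, depth and species are confounded between *D. melanogaster* and *D. simulans*, and each species is 1 strain.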
